A study of Mus musculus with 8 samples.

Results

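The visceral smooth muscle contractile genes are 10 genes that encode filaments, filament regulators and attachment proteins of the gut's muscle coat: Acta2, Actg2, Myh11, Tagln, Cnn1, Des, Pgm5, Lmod1, Smtn and Synm. They were taken by name from the gene column of the scanner files and are 10 of 20002 named genes tested, read by 17 of 55681 non-control probes. The data are single-colour Agilent arrays of total RNA from intestine of 129SV mouse pups aged 3 days, untreated, from a colony carrying a claudin-7 knockout. Small and large intestine were each sampled from wild-type and from knockout pups, which gives 4 groups of 2 arrays, labelled replicates 2 and 3. Each sample was a piece of intestine and the labels name no separation of mucosa from muscle, so in these bulk samples fewer muscle cells and less RNA per muscle cell cannot be told apart. The labels do not say whether the samples came from different pups, so each p-value measures the spread between these samples, which may be technical.

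Gut smooth muscle contracts when myosin, whose smooth muscle heavy chain is Myh11, pulls on thin filaments made of smooth muscle actins. Calponin, transgelin and smoothelin sit on those filaments, desmin and synemin form the intermediate filaments that tie the contractile units together, and attachment sites carry the force to the membrane. Many of these genes are under serum response factor and its partner myocardin, which act through a short DNA element called the CArG box.

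The sequences that bear on how the genes were read are shown first. The array measures each gene with 60-base probes, and 2 are printed as examples because each is the only probe of its gene: Myh11 lies at chr16:14202190-14202249 and Des at chr1:75363404-75363629 on mm9, on the minus and plus strands.
Myh11: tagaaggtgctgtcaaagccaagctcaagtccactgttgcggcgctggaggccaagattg
Des: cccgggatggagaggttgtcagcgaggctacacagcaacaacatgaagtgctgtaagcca
The Des probe's genomic span is 166 bases longer than the probe, so it crosses an intron. The Acta2 and Actg2 probes shared no run longer than 6 bases, and no probes of 2 different members shared more than 10. Probes were compared only with each other. Smooth muscle actins are close relatives, and whether a probe also matches the transcript of a related gene was not tested. Exon and UTR annotation of mm9 was not used here.

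Upstream sequence was searched because the members moved together over the arrays. The RefSeq promoter table (GRCm38.p6) held 7 of the 10 members; Actg2, Myh11 and Tagln were not among them. No member had an exact CArG box in the 250 bases before its start, while 1.47% of 32851 promoters had one. A looser search, chosen after that result, allowed 1 G or C among the 6 middle bases and reads the same on both strands. It matched at 2 places in Acta2 and 1 in Synm, against 8.59% of promoters with any such match and 0.67% with more than 1. The stretches with matches in capitals are the 150 bases before the Acta2 start, chr19:34255374-34255523, and the 50 bases farthest upstream of Synm, chr7:67759943-67759992, both on the minus strand.
Acta2: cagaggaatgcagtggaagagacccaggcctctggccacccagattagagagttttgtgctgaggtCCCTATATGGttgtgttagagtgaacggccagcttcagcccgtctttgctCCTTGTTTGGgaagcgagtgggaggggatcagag
Synm: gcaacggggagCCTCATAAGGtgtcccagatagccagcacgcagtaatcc
The Acta2 matches lie at positions -84 to -75 and -34 to -25 from the start, and the Synm match at -239 to -230. A match here describes the letters, and whether a site is used was not tested with these data.

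The labels were checked against Cldn7 and epithelial genes. Cldn7 lay between 5.56 and 5.93 on the 4 wild-type arrays and between 0.94 and 2.21 on the 4 knockout arrays, as log2 of the signal over each array's 75th percentile, the scale of every level below. All 10 epithelial markers, Epcam, Cdh1 and Vil1 among them, were well above background on all 8 arrays. Between 62.1% and 71.1% of probes were well above background on each array, no non-control spot was saturated, and all 17 member probes were well above background on all 8 arrays. In the small intestine the median difference of all genes, knockout minus wild type, was -0.10, and 2006 genes passed the test, 64.6% of them higher in the knockout (76.3% when arrays were scaled to their medians).

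The wild-type small intestine arrays did not agree on smooth muscle. Every member, and every one of the 17 probes, was lower on replicate 3 than on any other array. Replicate 2 exceeded replicate 3 by 0.63 (Tagln) to 2.63 (Lmod1) on the log2 scale, with a median of 1.11, where the median over all genes was 0.04. The Lmod1 reading on replicate 3 was dim, a signal of 49.7 where the next lowest member, Des, read 4419. Its level of -6.02 was not far above -6.75, at which Gfap was not above background on that array. This reading enters every Lmod1 comparison with wild-type small intestine below. For 6 of the 10 members the gap was over 2-fold, against 6.75% of all genes. The members' genotype differences below had a median of 1.67, so these gaps are not small beside them. The members' and lists' small intestine results are therefore also given without replicate 3.

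**Figure D1:**
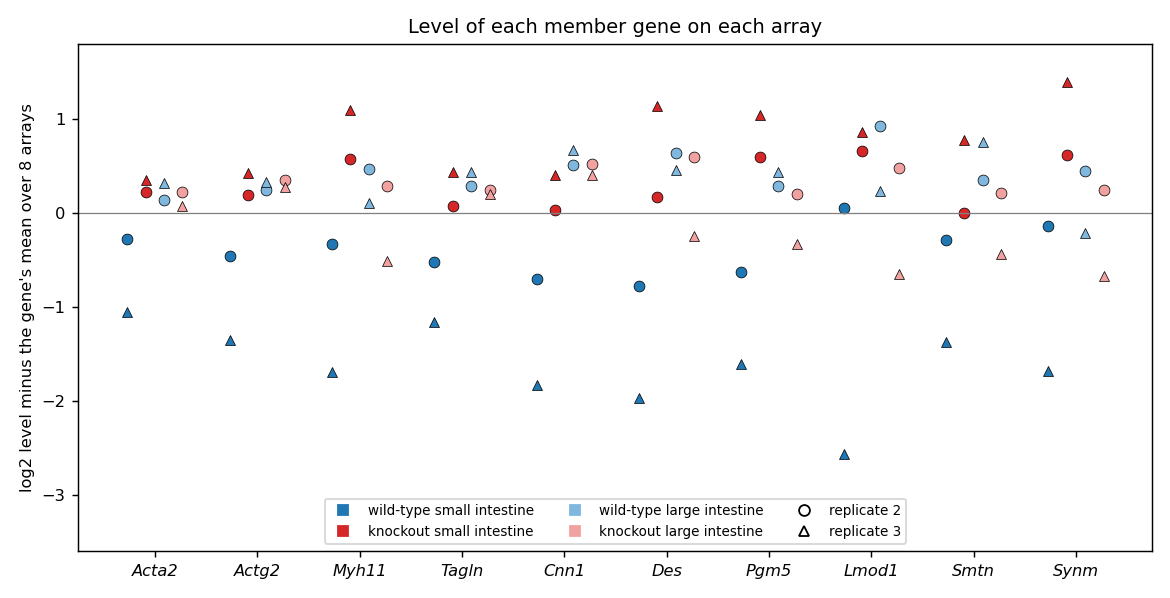
Log2 level of each member on each of the 8 arrays (points), less that gene's mean over the arrays; colour gives genotype and segment, and circles and triangles give replicates 2 and 3. Wild-type small intestine replicate 3 is the lowest point for all 10 genes.

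In the small intestine all 10 members were higher in the knockout, and for each of them both knockout arrays lay above both wild-type arrays, a pattern found in 26.6% of all genes. After adjustment over all 20002 genes (limma, Benjamini-Hochberg), Pgm5 and Tagln rose; 6.47% of genes passed in this direction and 10% in either. The other 8 did not pass, though 3 of them, Cnn1, Actg2 and Des, had adjusted p between 0.0519 and 0.0527. All 10 had an unadjusted p under 0.05, as did 6295 of the 20002 genes. The members' median difference was 1.67, and that of all genes was -0.10.

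The actins and the motor come first, with probes on mm9 at chr19:34316060-34316119 (Acta2), chr6:83462904-83462963 (Actg2) and chr1:137264581-137264640 (Lmod1). Acta2, smooth muscle alpha-actin, read 6.48 and 5.71 in wild-type small intestine and 6.98 and 7.11 in the knockout, replicates 2 and 3 in that order here and below. Its difference was 0.95 ± 0.28 (SE, 2 arrays a group; adjusted p = 0.0714). Actg2, the gamma-actin typical of visceral muscle, read 6.12 and 5.23 against 6.77 and 7.01. Both knockout arrays of each actin were high and the wild-type arrays stood apart from one another. The Actg2 difference was 1.22 ± 0.30 (adjusted p = 0.0521). Myh11 read 2.94 and 1.57 in wild type against 3.83 and 4.36 in the knockout, a difference of 1.84 ± 0.49 (adjusted p = 0.0593). Lmod1, leiomodin 1, which nucleates actin filaments in smooth muscle, had the widest spread: its wild-type arrays read -3.39 and -6.02, while its knockout arrays read -2.79 and -2.59. Lmod1's difference of 2.02 ± 0.82 had an adjusted p of 0.149, and its wild-type SD of 1.86 compares with 0.14 in the knockout. Both values rest on the dim replicate 3 reading, and without that array the difference was 0.71.

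The filament-bound regulators were read at chr9:45738097-45738156 (Tagln), chr9:21913058-21913117 (Cnn1) and chr11:3417530-3417589 (Smtn) on mm9. Tagln, transgelin or SM22, an actin-binding protein, read 6.004 and 5.37 in wild type and 6.60 and 6.96 in the knockout. It rose 2.13-fold, a log2 difference of 1.09 ± 0.26 (adjusted p = 0.0491). Cnn1, calponin 1, which binds actin and slows the myosin motor, read 5.68 and 4.55 against 6.42 and 6.79. That gave 1.49 ± 0.37 (adjusted p = 0.0519), with no overlap of the groups. Smtn, smoothelin, which associates with stress fibres of contractile cells, read 3.60 and 2.52 against 3.89 and 4.66. Its lower knockout array was 0.29 above its higher wild-type array, and the difference of 1.22 ± 0.45 did not pass (adjusted p = 0.12).

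The intermediate filament and attachment genes were read, besides Des, at chr7:74877629-74877688 (Synm) and chr19:24757846-24757905 (Pgm5) on mm9. Des, desmin, read 1.64 and 0.45 in wild type and 2.59 and 3.56 in the knockout, a difference of 2.03 ± 0.51 (adjusted p = 0.0527). Synm, synemin, a partner of desmin, read 2.34 and 0.79 against 3.09 and 3.87, a difference of 1.92 ± 0.59 (adjusted p = 0.0789). In both genes the knockout arrays also differed from each other, replicate 3 being the higher. Pgm5, a relative of phosphoglucomutase found at adherens-type junctions of muscle, read 3.06 and 2.08 in wild type and 4.28 and 4.73 in the knockout. Pgm5 rose 3.83-fold, a log2 difference of 1.94 ± 0.37 (adjusted p = 0.036), and had the smallest p of the 10.

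Leaving out wild-type small intestine replicate 3 kept all 10 differences above 0. Neither call held, and calls over all genes also fell steeply in that fit. The 10 differences then ran from 0.57 (Acta2) to 1.45 (Pgm5) with a median of 0.85; in that fit the lone wild-type array is assumed to vary like the other groups. Pgm5 was 1.45 ± 0.35 (adjusted p = 0.14) and Tagln 0.78 ± 0.28 (adjusted p = 0.214). Without wild-type replicate 2 instead, the median was 2.24. It was 1.41 without knockout small intestine replicate 3 and 1.89 without its replicate 2, with all 10 above 0. Which members passed changed with the array left out, also for the 4 large intestine arrays, which share the estimate of spread. The number of genes passing over all genes moved as well.

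In the large intestine no member's difference between genotypes passed the test (limma; 0.31% of all genes did) and none had an unadjusted p under 0.05. Differences ran from -0.67 (Lmod1) to 0.03 (Actg2), with a median of -0.35 against 0.00 for all genes. Acta2 read 6.90 and 7.08 in wild-type and 6.98 and 6.84 in knockout large intestine, and the 95% interval of its difference was -0.74 to 0.59. Des read 3.06 and 2.88 against 3.02 and 2.17, with an interval of -1.59 to 0.84. The Acta2 and Des groups overlapped. Tagln, Pgm5 and Smtn had both knockout arrays below both wild-type arrays, an arrangement found in 27.6% of genes. Smtn was the nearest of these to a difference, reading 4.24 and 4.64 against 4.10 and 3.45 (-0.66 ± 0.45, adjusted p = 0.55). Scaling changed signs among these uncalled values: 1 of 10 was above 0, but 4 were with median scaling and 0 with quantile normalization.

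Whether the knockout effect differed between segments was tested directly. For all 10 members the estimated difference, large minus small, was below 0, from -1.03 (Acta2) to -2.69 (Lmod1) on the log2 scale. None passed the adjusted test (limma, where 0.14% of genes did). Of the members 9 had an unadjusted p under 0.05, all but Lmod1, as did 5173 of the 20002 genes. Pgm5 came nearest, at -2.36 ± 0.52 (adjusted p = 0.0994). The median over members was -2.06, and over all genes 0.14. Without wild-type small intestine replicate 3 the members ran from -0.64 to -1.87. With both segments in 1 genotype term, all 10 lay above 0, from 0.28 (Smtn) to 0.83 (Des), with a median of 0.68. Without wild-type small intestine replicate 3, 8 of 10 did and the median was 0.24; without knockout small intestine replicate 3, 9 did and it was 0.39. None passed with all 8 arrays (limma; 0.63% of genes did), and none had an unadjusted p under 0.05.

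**Figure D2:**
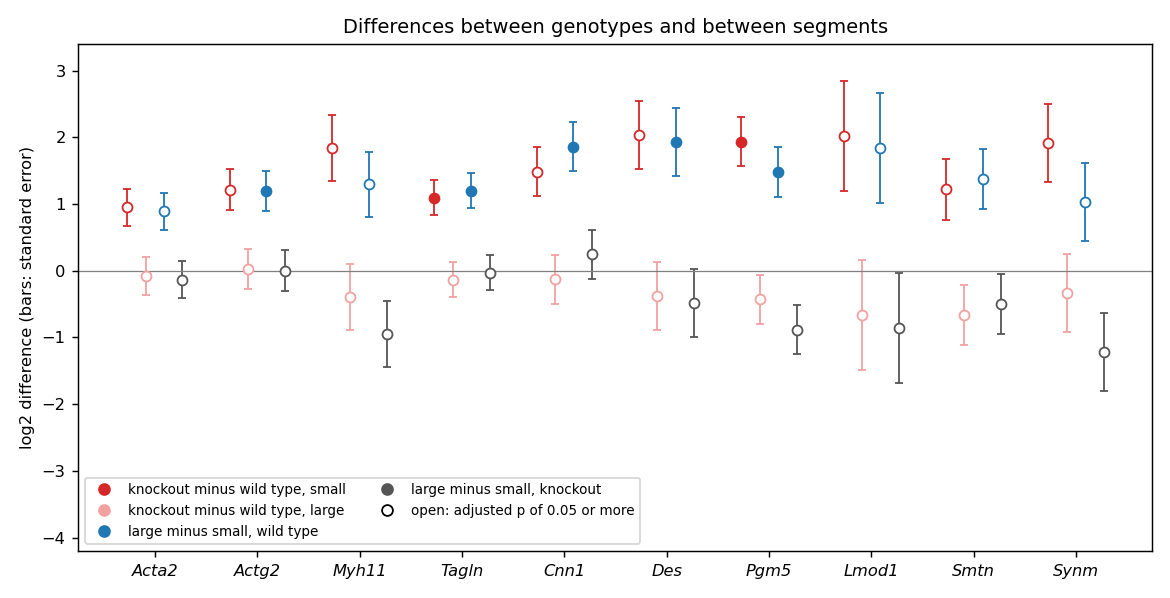
Log2 differences (points) with standard errors (bars) for each member, for knockout minus wild type in each segment and for large minus small intestine in each genotype; filled points passed an adjusted p of 0.05. The 7 filled points are Pgm5 and Tagln in the small intestine genotype comparison and Actg2, Tagln, Cnn1, Des and Pgm5 in the wild-type segment comparison.

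In wild-type pups 5 of the 10 genes were higher in large than in small intestine by the test. Actg2, Tagln, Cnn1, Des and Pgm5 passed, all higher in the large intestine, where 9.99% of genes passed in that direction and 20% in either. Cnn1 showed it most firmly, reading 6.89 and 7.06 in large against 5.68 and 4.55 in small intestine, 3.63-fold (1.86 ± 0.37, adjusted p = 0.0187). Tagln differed by 1.20 ± 0.26 (adjusted p = 0.0249) and Des by 1.93 ± 0.51 (adjusted p = 0.0425). The wild-type large arrays of these genes lay close together and above both small intestine arrays. All 10 members were higher in large intestine and 9 did not overlap, as 34.4% of genes did not in that direction; Synm overlapped, its wild-type large replicate 3 reading 2.26 against 2.34 in small replicate 2. This comparison uses the same wild-type small intestine arrays as the genotype comparison. Without their replicate 3, Cnn1 differed by 1.30 and the members' median was 0.79. Without their replicate 2 the median was 1.95. It was 1.38 without wild-type large intestine replicate 2 and 1.39 without its replicate 3. All 10 members stayed above 0 in each of these fits. Most or all calls were lost without wild-type small intestine replicate 3 or either wild-type large intestine array, and calls over all genes fell too.

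Several other lists were also higher in wild-type large than small intestine. Of the 53 companion contractile genes 19 passed in either direction, where 20% of all genes did. As higher 16 passed, 30.2% against 9.99% of all genes. Passing as lower were 2 calcium, channel and receptor genes and 1 transcription factor. Without wild-type small intestine replicate 3 the medians of the 5 companion lists ran from 0.11 to 0.80. Enteric neuron markers had all 12 above 0, 2 of them passing, with a median of 1.31 that was 0.79 without that array. Of 3 interstitial cell of Cajal markers 2 passed, and of 10 skeletal muscle markers 5 passed as higher, with a median of 1.28. Without that array the medians of these 2 lists were 1.01 and 1.11. Not every list ran this way: of 7 endothelial markers 0 were above 0, with a median of -0.20 and none passing. The part of these markers in the segment difference was not tested.

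Between the knockout segments no member passed (limma; 16% of genes did), none had an unadjusted p under 0.05, and differences ran from -1.22 (Synm) to 0.25 (Cnn1) with a median of -0.49. Actg2 was nearly level, its knockout small arrays reading 6.77 and 7.01 and its large arrays 6.93 and 6.85 (95% interval -0.72 to 0.73). Myh11, Pgm5, Lmod1 and Synm had both large arrays below both small arrays, as did 30.7% of genes. Pgm5 had the smallest p of these, at -0.88 ± 0.37 (adjusted p = 0.146). In order of group mean, wild-type small intestine was lowest for every member, and neither the knockout segments nor the large intestine genotypes differed by a passed test; knockout small against wild-type large intestine was not tested.

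The replicate gap outside wild-type small intestine was smaller and ran in different directions. In knockout small intestine all 10 members were higher on replicate 3, by 0.13 (Acta2) to 0.97 (Des). In knockout large intestine all 10 were higher on replicate 2, by 0.04 (Tagln) to 1.14 (Lmod1). Wild-type large intestine had no shared direction, with 4 members higher on replicate 2. In 3 of the 4 groups, then, all members shifted the same way from one sample to the other. Over all genes the SD of this gap was 0.65 in wild-type small, 0.72 in knockout small and 0.71 in knockout large intestine. Many of the members' gaps in the knockout groups lay within that spread.

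Members with several probes were read by each of them. The 3 Pgm5 probes differed between genotypes in small intestine by 1.57 to 2.20, the 5 Synm probes by 1.84 to 2.17, and the pair for Smtn by 0.91 and 1.22. With every probe tested as its own feature, 1 of the 3 Pgm5 probes passed (adjusted p of 0.046, 0.0512 and 0.071, limma), and 1 of 3 in the wild-type segment comparison (0.0444, 0.0882 and 0.102), in both cases the one that stands for the gene above. The Smtn probes disagreed in sign for large minus small intestine in the knockout, at -0.50 and 0.07. Acta2 and Des were each spotted 10 times, and those repeats varied by an SD of only 0.03 to 0.09 and 0.02 to 0.04 within an array. The bright genes Acta2, Actg2, Tagln and Cnn1 spanned 1.40 to 2.51 over the 8 arrays and the other 6 spanned 2.14 to 3.50, where the median gene spanned 1.30. These 4 lay at the 99.3 to 99.7 percentile of mean level, and their highest readings were 56.8% to 63.8% of saturation. Whether their brightness narrowed their differences was not tested.

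**Figure D3:**
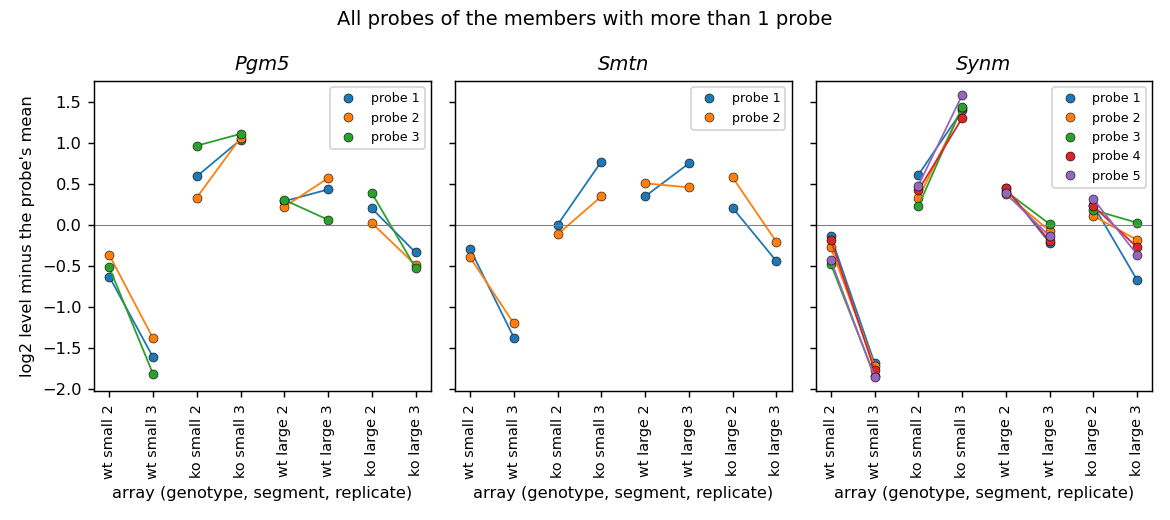
Log2 level of each probe of Pgm5, Smtn and Synm on the 8 arrays, less the probe's own mean; lines join the replicates of a group (wt, wild type; ko, knockout). All 10 probes are lowest on wild-type small intestine replicate 3.

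Other genes of the contractile apparatus were read from lists chosen with earlier results of these data known. In small intestine, knockout against wild type, all 8 thin filament and light chain genes were higher and none passed. Of these 5 had an unadjusted p under 0.05 (limma), as did 6295 of the 20002 genes. Tpm1, a tropomyosin, came nearest (1.19 ± 0.29, adjusted p = 0.0503). Of 8 myosin phosphatase and cGMP genes 1 rose, Prkg1, the kinase that relaxes smooth muscle (1.78 ± 0.40, adjusted p = 0.0437). Of 16 dense plaque and adhesion genes all were higher and 2 rose: Pdlim3, an actinin-binding LIM protein (1.53 ± 0.32, adjusted p = 0.0392), and Sgcb, a sarcoglycan (1.25 ± 0.30, adjusted p = 0.0499). Of 12 calcium, channel and receptor genes 10 were higher and 1 rose, Kcnma1, the large-conductance potassium channel (1.60 ± 0.32, adjusted p = 0.037). Of 9 transcription factors measured none passed (limma; 5 had an unadjusted p under 0.05): Srf was 1.12 ± 0.35 (adjusted p = 0.0832), Myocd 1.79 ± 0.63 (adjusted p = 0.106) and Gata6 -1.14 ± 0.34 (adjusted p = 0.0744). Over the 5 lists 4 of 53 genes rose, 7.55%, which is near the 6.47% of all genes that passed in that direction. The list medians ran from 0.62 for the transcription factors to 1.39 for the calcium and channel genes, against -0.10 for all genes. Without wild-type small intestine replicate 3 the 5 medians ran from 0.48 to 0.98. In large intestine no gene of these 5 lists passed. There 5 of 53 had an unadjusted p under 0.05 (limma), as did 2646 of the 20002 genes.

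Markers of other cells in the gut wall were read in the same comparison, in which 6.47% of all genes passed as higher and 10% in either direction. Enteric neuron markers had 8 of 12 higher by the test in knockout small intestine, with Vip at 2.25 ± 0.37 (adjusted p = 0.0288), Ret at 1.54 and Stmn2 at 2.02. Their median level on wild-type small intestine replicates 2 and 3 was -0.50 and -1.59, and on the knockout arrays 0.41 and 1.12, each gene being centred on its own mean. Of 6 enteric glia markers 4 rose, Gfap and Fabp7 among them, and 1, Erbb3, fell. Gfap was dim in wild-type small intestine, at -6.09 and -6.75, and not above background on replicate 3. Of 3 interstitial cell of Cajal markers Etv1 rose. Of 4 mesothelial markers 3 rose (Msln, Wt1 and Lrrn4), as did 3 of 6 pericyte markers (Rgs5, Kcnj8 and Abcc9) and 3 of 8 fibroblast markers (Dcn, Lum and Pdgfra). No endothelial marker of 7 passed (limma; 1 had an unadjusted p under 0.05).

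Of 10 skeletal muscle markers 9 were above 0 and 1 rose (Tnnt3, 2.14 ± 0.44, adjusted p = 0.0388) and of 6 cardiac markers all were above 0 and 1 rose (Tnnt2, 2.58 ± 0.62, adjusted p = 0.049). Their summed signal, in units of the array's 75th percentile, ran over the 8 arrays from 2.27 to 14.3 for the skeletal list and from 0.76 to 8.24 for the cardiac list. Without wild-type small intestine replicate 3 the calls in the 15 lists were lost, and calls over all genes fell steeply too. The list medians stayed on the same side of 0. They were 1.41 for enteric neuron, 1.53 for glia and mesothelial, 0.92 for skeletal and 0.91 for cardiac markers. The endothelial median went from 0.40 to 0.16 and the epithelial one from -0.33 to -0.16. No marker of any list was below background on all arrays. Mylpf and Barx1 were not measured.

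Epithelial markers ran the other way between replicates. In wild-type small intestine 8 of 10 were higher on replicate 3, by a median of 0.22, and in knockout small intestine 9 of 10 were higher on replicate 2, by 0.44. In knockout large intestine 9 of 10 were higher on replicate 3, by 0.25. Between genotypes in small intestine, Krt20 rose while Elf3 and Cdx1 fell, and the list's median was -0.33. The part of these cell markers in the smooth muscle differences was not tested.

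**Figure D4:**
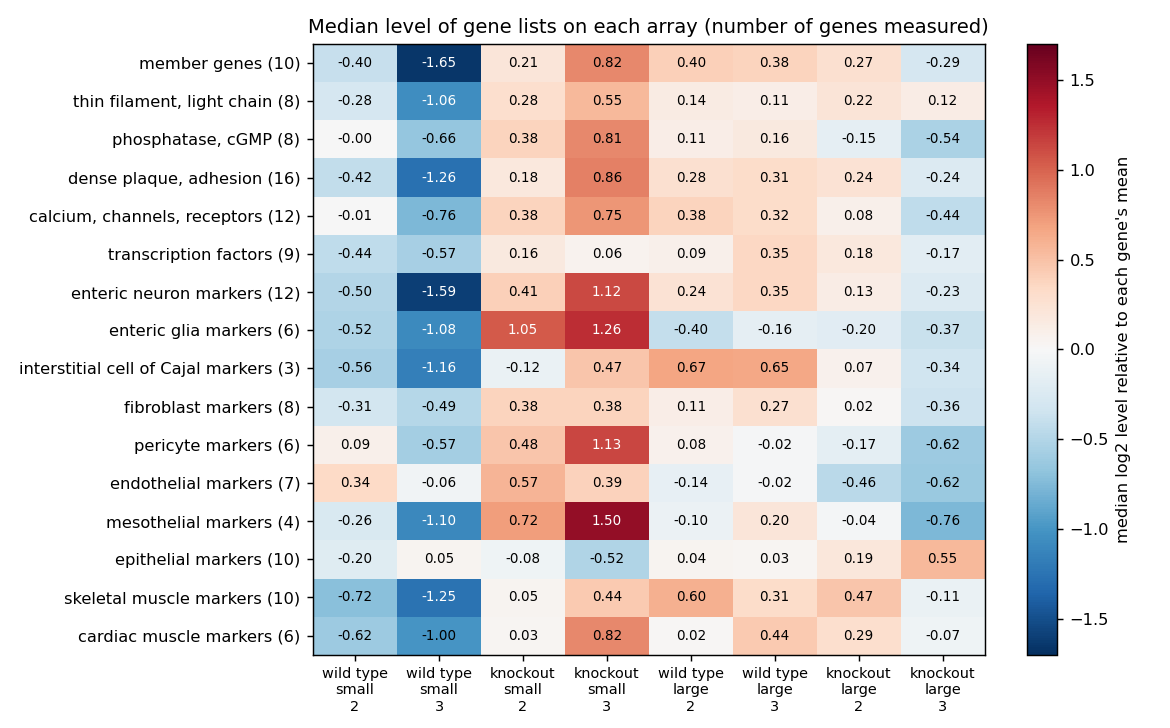
Median log2 level of the members and of 15 gene lists on each array, after subtracting every gene's average across arrays (colour and printed value; number of genes measured in brackets). The members are at -1.65 and the enteric neuron markers at -1.59 on wild-type small intestine replicate 3, where the epithelial markers are at 0.05.

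The genes most like the members were ranked by Pearson correlation with the members' mean level over the 8 arrays. Among the 10 highest were Togaram2, Ptn, Hoxb5, Clvs1, Sema4f, Fam131b, Scn2a, Creg2 and Srrm3, with r from 0.9947 down to 0.9897. The members themselves gave r from 0.91 (Synm) to 0.99 (Des), with the mean they help to make. Ptn, the growth factor pleiotrophin, read 2.00 and 0.49 in wild-type small intestine, 2.80 and 3.43 in the knockout, and between 2.44 and 3.05 in large intestine. Its low reading on wild-type small intestine replicate 3 follows from how it was chosen. These 8 arrays share slide and scan, and the correlations are a description of them.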

How the data were processed

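Total RNA was hybridised in 1 colour (Cy3) to Agilent 8x60K mouse arrays, per the labels. The authors deposited scanner output whose processed signal is an intensity, background-subtracted by Agilent Feature Extraction 10.7.3.1, per the file headers; the submitters' processing notes name R 3.3.0. All 8 arrays lay on 1 slide and carry 1 scan date. Each group fills 1 slide column and replicates 2 and 3 fill rows 1 and 2, so group and column cannot be told apart.

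Flagged outlier spots were dropped, spots of a probe averaged, and log2 signal taken less each array's 75th percentile. A probe was kept where at least 1 group had it well above background on its 2 arrays, and the probe with the highest mean stood for its gene. The authors' deposited value table served as an alternative; its column medians were 159 to 160.87, and its centring is not given in the sources used here. Differences were tested with limma 3.58.1 in R 4.3.3 (1 mean per group, 4 residual degrees of freedom; genotype plus segment for both segments), with Benjamini-Hochberg adjustment over 20002 genes and a threshold of 0.05. With 2 arrays a group, their number limits the precision. Data were also simulated for the small intestine comparison with 20002 genes, of which 66, 67 and 67 were changed by 1, 2 and 4 on the log2 scale. Of these 6.06%, 52.2% and 92.5% were recovered. So few changed genes make the adjusted cutoff stricter than in the real data, where 2006 genes passed. These rates therefore do not give the power of the tests above.

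The genes named are the 10 members with every probe, Cldn7, up to 3 genes per list with the smallest p in the small intestine genotype comparison, and the 10 genes most correlated with the members; a few further list genes were named after their values were seen, and some genes under this rule are not reported here. Members and lists were chosen with earlier results of these data known. Alternatives were background correction, scaling, filters, probe choice, a replicate block, the groups entering the fit and leaving out each array.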

Additional observations from a re-analysis of the deposited data

How the results depend on the processing

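All 10 members stayed higher in knockout small intestine, and all 10 kept a negative difference of the knockout effect between segments, under every alternative run; no called value changed sign. How many passed did depend on the processing. In the small intestine genotype comparison 2 members passed as reported, 5 with normexp background correction, 1 with quantile normalization, 7 with median scaling, 0 without the background filter, 6 with genes above background on all 8 arrays, 1 with every probe as its own feature and 0 with only the 2 groups compared; leaving out each array in turn gave 0 to 9. Pgm5 passed under 10 of 18 alternatives and Tagln under 6. For wild-type large against small intestine 5 members passed as reported, 2 without the background filter, 3 with only the 2 groups compared and 0 to 9 when each array was left out.

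Counts over all genes moved too. The small intestine genotype comparison gave 2006 genes, 488 without the filter, 35 with only the 2 groups compared and 70 to 3827 leaving out each array. The large intestine gave 62, then 101 with median scaling, 19 without the filter, 32 above background on all arrays, 121 with only the 2 groups and 0 to 86 leaving out each array. Both segments gave 126, then 192 with median scaling, 53 without the filter and 1 to 65 leaving out each array. The difference between segments gave 28, then 15 without the filter, 5 above background on all arrays and 1 to 986 leaving out each array. Wild-type segments gave 903 to 4975 leaving out each array, and knockout segments 1583 with only the 2 groups and 1202 to 3073 leaving out each array. The cause of these shifts was not tested.

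Replicate numbers are shared by the groups, but the labels do not say what a number marks, and deviations of same-numbered samples correlated at only 0.01 to 0.26 over genes. With the replicate block Pgm5 alone passed in the small intestine (1 member, adjusted p = 0.0491), Tagln being lost (adjusted p = 0.0639). In the wild-type segment comparison 4 members passed under the block, Des being lost (adjusted p = 0.0555). The genes called under it numbered 1145 in the small intestine, 15 in the large intestine and 66 for both segments.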
